A study of Mus musculus with 7 samples.

Results

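The Myt1 family and the Insm factors are 5 zinc finger transcription factor genes of neuronal and endocrine cells: Myt1, Myt1l and St18 (also called Myt3), and Insm1 and Insm2. They were read from a table of counts for 55536 genes by their symbols, and each of the 5 symbols matched 1 gene. The choice used no measured value. The libraries came from alpha cells of the mouse pancreas, which make glucagon, and the comparison asked how gene expression in these cells in vivo depends on the homeodomain factor NKX2.2.

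The 4 control samples came from Nkx2.2+/+;Gcg-iCre;Rosa26:tdTomato mice and the 3 knockout (KO) samples from Nkx2.2fl/fl;Gcg-iCre;Rosa26:tdTomato mice, of the C57BL/6J strain. Both groups thus carried Gcg-iCre, a Cre recombinase driven by the glucagon gene, and the red reporter tdTomato at Rosa26, and they differed in whether Nkx2-2 (NKX2.2) had the sites that Cre recombines. Cells were sorted from islets by tomato fluorescence, which marks any cell in which this Cre has acted, whatever hormone the cell makes when it is sorted. Age, sex, and whether mice were pooled are not given in the sources used here. Nothing in the labels ties a sample to a separate animal, so a p-value measures the spread between these samples, which may be technical.

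Myt1 family proteins carry clusters of CCHC zinc fingers that bind DNA at AAGTT cores, and they act largely as repressors with SIN3 and histone deacetylases. Insm1 and Insm2 carry an N-terminal SNAG domain, a short stretch that recruits the demethylase LSD1 (Kdm1a) and CoREST proteins, followed by C2H2 zinc fingers. In the embryonic pancreas Myt1 and Insm1 are switched on with the endocrine programme that Neurog3 starts, and both persist in mature islet cells. Bulk RNA cannot tell fewer cells of a type from less RNA per cell.

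Start site windows show where the letters bound by NKX2.2 and its NK2 relatives fall in these genes. RefSeq windows (GRCm38.p6) of 250 bases before to 50 after a start were at hand for Myt1 (3 starts), Myt1l (5) and Insm2 (1), and St18 and Insm1 were not analysed here. Both strands were searched for AAGTG, the core of the NK2 motif, for its longer form TNAAGTGG, which contains that core, and for AAGTT, the Myt1 family core. These occur in 46.4%, 3.21% and 39.3% of all 32851 such windows. Below are the outermost Myt1 window, since Myt1 was the member whose level changed, and the Insm2 window, which held the most NK2 cores among the members. Both were picked after their matches were seen and are printed to 30 bases after the start, in lower case with NK2 cores in capitals.

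Myt1, chr2:181763082-181763361, plus strand: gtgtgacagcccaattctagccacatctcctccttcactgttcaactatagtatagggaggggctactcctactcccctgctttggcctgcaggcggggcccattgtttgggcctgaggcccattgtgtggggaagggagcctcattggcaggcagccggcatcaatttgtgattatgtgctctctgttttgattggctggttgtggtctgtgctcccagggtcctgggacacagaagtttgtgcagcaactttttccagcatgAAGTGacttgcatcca

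Insm2, chr12:55598667-55598946, plus strand: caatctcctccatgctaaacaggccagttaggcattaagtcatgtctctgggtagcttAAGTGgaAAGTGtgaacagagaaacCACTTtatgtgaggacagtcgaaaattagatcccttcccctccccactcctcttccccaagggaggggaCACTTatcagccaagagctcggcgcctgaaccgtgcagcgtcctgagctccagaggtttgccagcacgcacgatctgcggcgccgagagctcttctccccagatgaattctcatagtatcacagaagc

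The Myt1 window held 1 NK2 core, 15 bases after the start, and 2 AAGTT cores, at -15 and -2 from the start. The Insm2 window held 4 NK2 cores, at -192, -185, -167 and -98, a number reached or passed by 0.688% of all windows. Of these, 2 belonged to the longer form and no AAGTT core was found. This RefSeq start of Insm2 lies upstream of the GENCODE start given further on. A match is a description of letters and not of binding.

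Total counts per library ran from 45483504 to 72456557. Control 4 and the KO library that has no number of its own in the labels (the unnumbered KO library) were the deepest. Control 4 also stood apart: 31024 genes had a count there, against 23150 to 25873 elsewhere, and the antisense gene C630031E19Rik had 601 normalized counts there, against at most 7.41 elsewhere. Calls that were lost without it are named. Even numbers made up 84.353% to 88.914% of the counts from 1 to 10, an excess that counting each mate of a pair would give. That cause was not tested, and independent depth may be lower than the counts. Nkx2-2, the targeted gene (chromosome 2, 147177546 to 147194243, minus strand), had 8596, 11199, 12297 and 9782 normalized counts in the controls (1 to 4, here and below), while the KO libraries (1, 2 and the unnumbered one, in this order) had 7758, 7534 and 7694. Normalized counts are counts divided by the size factor of DESeq2. Every KO library lay below every control, at 73.2% of the control mean. The log2 fold change, KO over control, was -0.45 (SE 0.13, adjusted p 0.0244 with DESeq2 and 0.152 with edgeR), and leaving out 1 library ended the DESeq2 call in 5 of 7 fits. The antisense gene Nkx2-2os, which overlaps 9.67% of the Nkx2-2 exon length, had 95.3, 199, 180 and 2.89 in the controls and 52.7 to 89.6 in KO libraries, lowest in control 4. The Nkx2-2 counts cover the whole gene, and the exons that Cre removes are not given in the sources used here.

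In sorted alpha cells 4 of the 5 factors were abundant and Insm2 was close to absent. In counts normalized and divided by exon length in kilobases, control cells held 1469 ± 67.9 (SD, n = 4) for St18, 1320 ± 147 for Myt1, 1079 ± 153 for Insm1, 402 ± 63.8 for Myt1l and 4.45 ± 3.00 for Insm2. Among 18182 protein-coding genes detected, those levels rank 792, 932, 1242, 4244 and 13807. Nkx2-2 itself, at 3641 ± 563 per kilobase, ranked 225.

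The order of the first members was not firm. St18 spanned 1409 to 1565 per kilobase over the controls and Myt1 1187 to 1528, so they overlapped, and Insm1 (941 to 1285) overlapped Myt1. Myt1l lay below those genes in each control, with 341 to 492. Dividing by the longest coding transcript in place of all exons put Myt1 (1723) above St18 (1611) and raised Myt1l to 782. In KO cells St18 had 1397 ± 133 (SD, n = 3), Insm1 1110 ± 268, Myt1 1000 ± 80.9, Myt1l 410 ± 36.6 and Insm2 10.8 ± 7.40 per kilobase. There, by exon length, Myt1 (953 to 1094) no longer overlapped St18 (1243 to 1482), and Insm1 (823 to 1354) overlapped both. Divided by the longest coding transcript, the KO means were 1305 for Myt1 and 1532 for St18, and their KO libraries overlapped.

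Of the 5 members, Myt1 alone passed the threshold, an adjusted p under 0.05 in DESeq2, and it fell. Over all 19719 genes tested 3.9% were called, and 1.94% were called lower. Myt1 was also the only member whose KO and control libraries did not overlap, which held for 11.4% of all genes tested. St18, Myt1l and Insm1 had log2 fold changes between -0.07 and 0.04, against a median of 0.007 over all genes tested. Without control 4 no member was called.

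Myt1 (ENSMUSG00000010505, chromosome 2, 181763332 to 181827797, plus strand, 25 exons after merging of transcripts) is the founding member of the family. Controls 1 to 4 held 8536, 9396, 9058 and 10987 normalized counts of Myt1, and KO 1, KO 2 and the unnumbered library held 6851, 6861 and 7864. The lowest control was thus above the highest KO library, and in each group the deepest library was the highest.

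The mean of Myt1 fell from 9494 ± 1056 (SD, n = 4) to 7192 ± 582 (SD, n = 3), to 75.7% of the control level. The log2 fold change was -0.40 (SE 0.12, 95% interval -0.64 to -0.17), and its adjusted p with DESeq2 was 0.0262. The quasi-likelihood test of edgeR gave -0.40 with an adjusted p of 0.156, and 203 of 19310 genes (1.05%) passed there. The fall kept its direction in all 16 alternative fits, from -0.47 to -0.30, and its call in 9 of them, with adjusted p-values from 6.83e-07 to 0.355.

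Leaving out 1 library at a time kept the Myt1 call in 2 of 7 fits, those without control 1 and without the unnumbered KO library. The adjusted p was 0.0633 without control 2 and also without control 3, 0.0711 without control 4 (log2 fold change -0.32), 0.263 without KO 1 and 0.155 without KO 2. Among the 2 deepest libraries the normalized counts of Myt1 were 10987 in control 4 and 7864 in the unnumbered KO library, and among the others they were 8536 to 9396 in controls and 6851 to 6861 in KO. Without both deepest libraries the log2 fold change was -0.39 (adjusted p 0.000444), and with a term for them -0.42 (6.83e-07). Scaling by library totals, which shifts the median of all genes by 0.101, gave -0.30 (adjusted p 0.355).

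**Figure D1:**
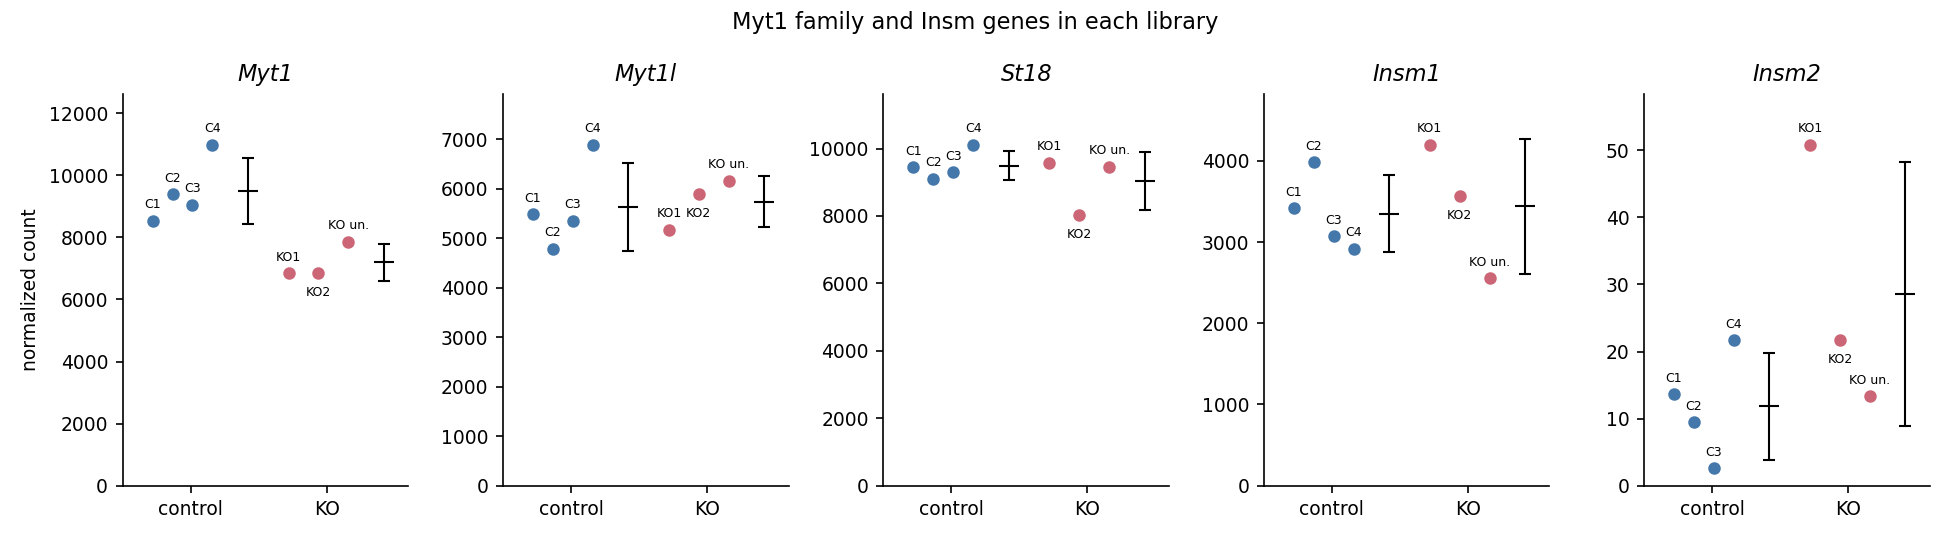
Normalized counts (counts divided by DESeq2 size factors, linear axes from 0) of the Myt1 family and Insm genes in controls 1 to 4 (C1 to C4, blue), KO 1, KO 2 and the unnumbered KO library (KO un., red); the bar beside each group is the mean ± SD. Myt1 has 6851 to 7864 in KO libraries, all below the 8536 to 10987 of the controls, and the other 4 genes overlap between groups.

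St18 (ENSMUSG00000033740, chromosome 1, 6487231 to 6860940, plus strand, 29 merged exons) is the Myt1 paralog named for the suppression of tumorigenicity. Normalized St18 counts were 9451, 9109, 9294 and 10116 in controls, against 9581, 8035 and 9467 in KO libraries. KO 2 was the lowest of the 7, and the other KO libraries lay within the control range. The means were 9492 ± 439 (SD, n = 4) and 9028 ± 861 (SD, n = 3), with a log2 fold change of -0.07 (SE 0.10, 95% interval -0.27 to 0.13, adjusted p 0.989 with DESeq2 and 0.925 with edgeR). The interval leaves out a fall as large as the point estimate of Myt1. Without control 4 the value was -0.04.

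Myt1l (ENSMUSG00000061911, chromosome 12, 29528384 to 29923213, plus strand, 30 merged exons) is the neuronal member of the family, known for repressing non-neuronal genes and for its use in turning fibroblasts into neurons. Controls held 5488, 4786, 5359 and 6892 normalized counts, and KO libraries 5169, 5897 and 6159. All KO libraries fell inside the control range, and control 4 was the highest of the 7. The log2 fold change was 0.03 (SE 0.14, 95% interval -0.25 to 0.31, adjusted p 0.9996 with DESeq2 and 0.990 with edgeR), and without control 4 it was 0.14 (adjusted p 0.704).

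Opposite-strand genes lie within the span of Myt1l. The processed transcript Gm20208 covers 4.516% of the Myt1l exon length and had 174 to 278 normalized counts, with no call. Among the controls Gm20208 was lowest in control 4, at 176. The antisense gene C630031E19Rik, in a Myt1l intron with 0 bases of exon overlap, had 601 in control 4 and at most 7.41 elsewhere. Control 4 was the highest library for both Myt1l and C630031E19Rik, and the part of antisense reads in the Myt1l counts was not tested.

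Insm1 (ENSMUSG00000068154, chromosome 2, 146221921 to 146225020, plus strand, a single exon) is a pan-endocrine and neuroendocrine factor required for the development of islet cells. Normalized counts of Insm1 were 3413, 3984, 3070 and 2918 in controls, against 4199, 3571 and 2551 in KO libraries. The KO libraries thus held both the highest and the lowest value of all 7. In each group the deepest library was the lowest, the reverse of Myt1. The log2 fold change was 0.04 (SE 0.18, 95% interval -0.32 to 0.40, adjusted p 0.9996 with DESeq2 and 0.987 with edgeR), and it lay between -0.13 and 0.21 when 1 library was left out.

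Insm2 (ENSMUSG00000045440, chromosome 12, 55599427 to 55602086, plus strand, a single exon) is the less studied Insm1 paralog. It had 12, 8, 2 and 30 counts in the controls, against 52, 21 and 18 in KO libraries. Control 3 was under the floor of 3 counts, and KO 1 was the highest. Normalized, these were 13.6, 9.44, 2.61 and 21.7 against 50.8, 21.7 and 13.3, so the groups overlapped. The log2 fold change was 1.25 (SE 0.89, 95% interval -0.50 to 3.00, adjusted p 0.772 with DESeq2 and 0.701 with edgeR). The means were 11.8 ± 7.98 (SD, n = 4) and 28.6 ± 19.7 (SD, n = 3), so the difference was smaller than the SD of the KO libraries.

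Within a library, 2 members can be compared without any scaling between libraries. The log2 ratio of Myt1 to St18 counts was -0.15, 0.04, -0.04 and 0.12 in the controls, against -0.48, -0.23 and -0.27 in KO libraries. All KO libraries lay below all controls, and the mean difference was -0.32. A difference as large came from 2 of the 35 possible assignments of libraries to groups (exact two-sided permutation test, p = 0.0571, adjusted p 0.171 over 3 ratios), where the smallest p this design allows is 0.0286. The difference stayed between -0.37 and -0.24 when 1 library was left out, and was -0.28 without control 4.

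The ratio of Myt1 to Insm1 differed by -0.42 (exact permutation p = 0.286, adjusted p 0.429) and that of St18 to Insm1 by -0.10 (exact permutation p = 0.657, adjusted p 0.657), with overlapping groups. In both, the unnumbered KO library (1.62 and 1.89 on the log2 scale) stood above the other KO libraries (at most 0.94 and 1.19). Counted per kilobase, Myt1 made up 41.3% ± 1.74 (SD, n = 4) of the 3 Myt1 family genes in controls (39.0% to 42.7%) and 35.6% ± 1.43 (SD, n = 3) in KO libraries (34.0% to 36.5%). St18 took 46.1% ± 1.85 and 49.7% ± 2.80, and Myt1l 12.5% ± 1.06 and 14.6% ± 1.46. These shares were not tested, and they rest on exon length. By the longest coding transcript the control level of Myt1 (1723 per kilobase) was above that of St18 (1611), and Myt1l had 782.

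**Figure D2:**
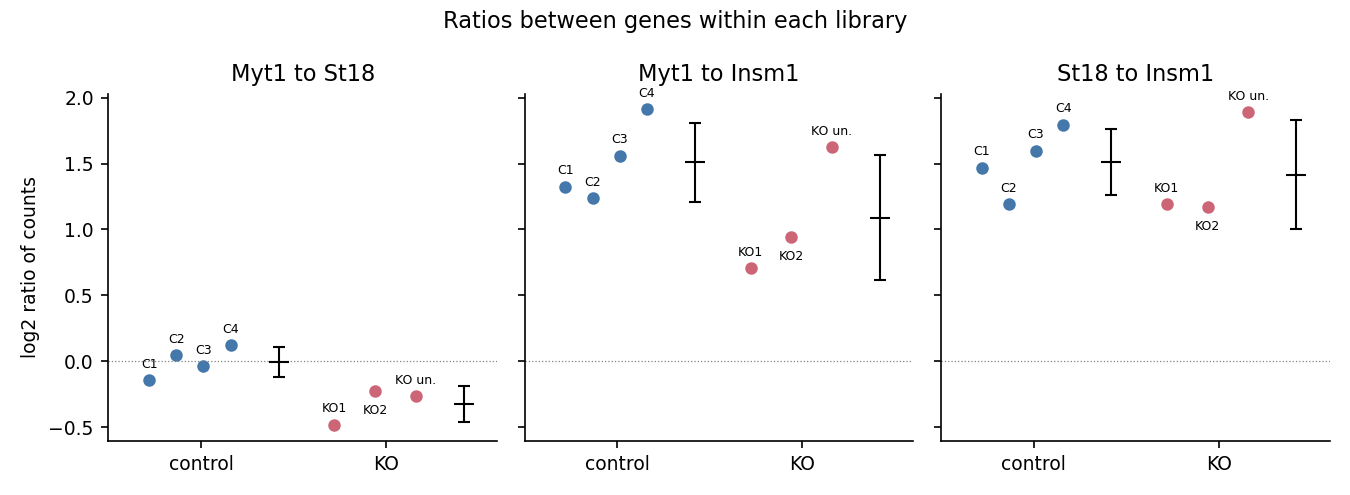
Log2 ratio of counts between pairs of genes within each library (controls C1 to C4 in blue, KO libraries in red, mean ± SD beside each group; the dotted line marks equal counts). The Myt1 to St18 ratio lies between -0.15 and 0.12 in controls and between -0.48 and -0.23 in KO libraries, and the other ratios overlap between groups.

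**Figure D3:**
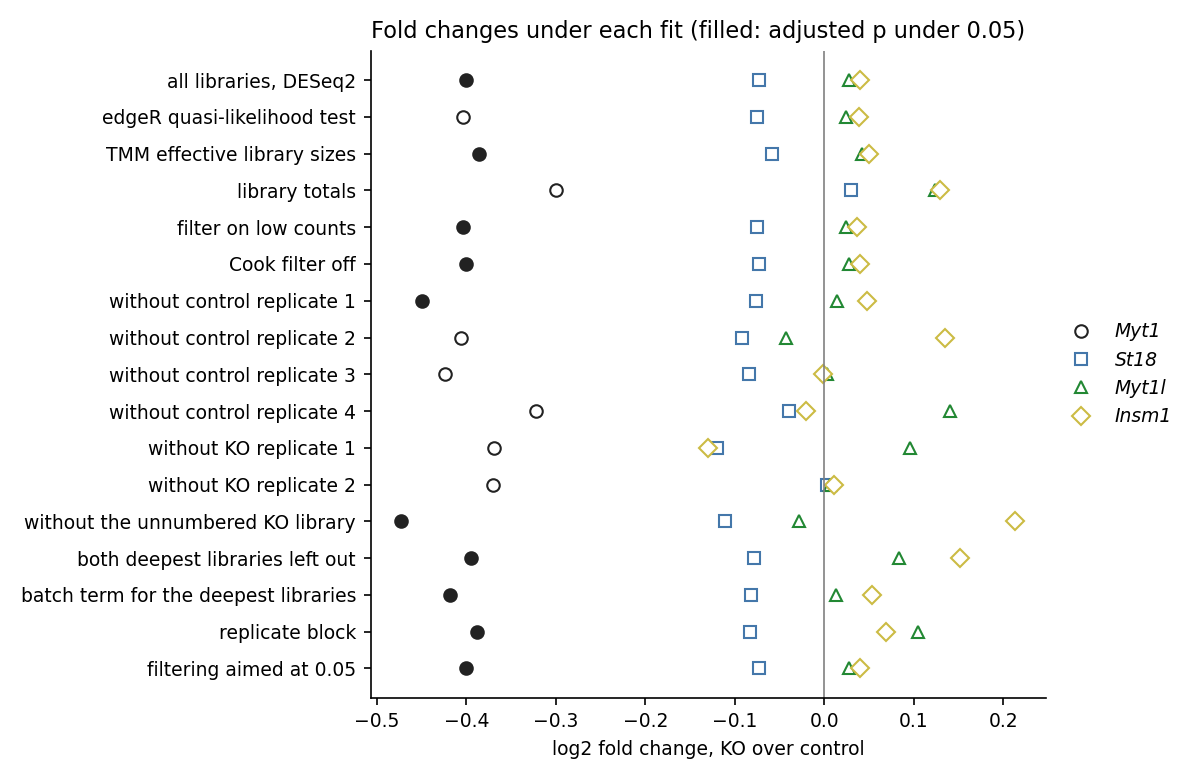
Log2 fold change, KO over control, of Myt1, St18, Myt1l and Insm1 (x axis) under DESeq2 with all libraries and under each alternative fit (y axis), with filled symbols where the adjusted p was under 0.05. Myt1 lies between -0.47 and -0.30 in every fit and is filled in some of them, and the other 3 genes are unfilled, with values on both sides of 0.

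The partners through which these factors repress are the SIN3, deacetylase, LSD1 and CoREST proteins. All 15 listed partner genes were tested and none was called with all 7 libraries in DESeq2 or edgeR, which call 3.9% and 1.05% of all genes, with a median log2 fold change of -0.03. KO and control libraries overlapped for each of the 15, while 11.4% of all genes tested did not overlap. Kdm1a, which encodes LSD1, had 6301 to 6730 normalized counts in controls and 6226 to 6352 in KO libraries (log2 fold change -0.05, SE 0.08). Sin3b, a SIN3 scaffold, had 6430 to 7304 and 6490 to 7351 (0.05, SE 0.10). Rest, a repressor of neuronal genes, had 59.0 to 175 and 155 to 284 (1.00, SE 0.40, adjusted p 0.192), and was called higher in the fit without control 2.

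The SNAG domain of Insm1 is shared by the Gfi1, Snail and Scratch factors. Of 7 listed genes, 3 were tested and 1 fell, where 1.94% of all genes tested did, and Gfi1b was at 0 in every library, under the floor of 3 counts. Scrt1, a repressor best known from neurons, had 216, 231, 214 and 297 normalized counts in controls and 76.3, 82.6 and 57.8 in KO libraries. Its highest KO library was far below its lowest control, and its log2 fold change was -1.74 (SE 0.28, adjusted p 1.61e-07 with DESeq2 and 0.0265 with edgeR). Scrt1 was called in all 7 fits that left out 1 library, from -1.85 to -1.60. Snai2, a Snail factor of mesenchymal cells, had 86.0 to 149 in controls and 41.3 to 81.5 in KO libraries (-0.84, SE 0.39, adjusted p 0.325), and Scrt2 had 11.3 to 65.0 and 13.7 to 31.1 (-0.50, SE 0.83, adjusted p 0.996).

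Notch signalling restrains the endocrine programme that Myt1 and Insm1 belong to. Of 23 listed genes 20 were tested and 1 was called, against 3.9% of all genes, with a median log2 fold change of 0.09. The receptor Notch2 rose from 916 to 1337 normalized counts in controls to 1508 to 1882 in KO libraries (0.57, SE 0.18, adjusted p 0.0378 with DESeq2 and 0.170 with edgeR). That call was lost in 6 of 7 fits that left out 1 library, control 4 among them. The receptor Notch1 had -0.23 (SE 0.14), the nuclear effector Rbpj -0.03 (SE 0.11) and the target gene Hes1 -0.23 (SE 0.33), none of them called.

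Among 15 listed transcription factors of the endocrine lineage, 13 were tested, 1 was higher (1.96% of all genes tested were) and 2 were lower, with a median of 0.01. Fev, an ETS-domain factor, had 1517 to 2079 normalized counts in controls and 965 to 1423 in KO libraries. It fell (-0.65, SE 0.17, adjusted p 0.00791 with DESeq2 and 0.105 with edgeR), as did Nkx2-2. The LIM homeodomain factor Isl1 rose from 8514 to 10661 in controls to 11706 to 15240 in KO libraries (0.44, SE 0.13, adjusted p 0.0251 with DESeq2 and 0.169 with edgeR). With 1 library left out at a time, Fev kept its call in 4 and Isl1 in 3 of 7 fits. Neurog3, which switches on Myt1 and Insm1 in the embryo, had 163 to 519 in controls and 336 to 510 in KO libraries. Its log2 fold change was 0.62 (SE 0.38, adjusted p 0.647). The 519 was in control 2, and Neurog3 was called higher in the fit without that library. Mafa (0.42, adjusted p 0.196) was called higher by library totals, without the unnumbered KO library and without both deepest libraries. It was also called higher with a term for the deepest libraries and with the replicate number as a block. Pax6 (0.01) and Neurod1 (-0.16) were not called. Without control 4, 1 of the 15 was higher and 2 were lower, the same genes as with it.

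**Figure D4:**
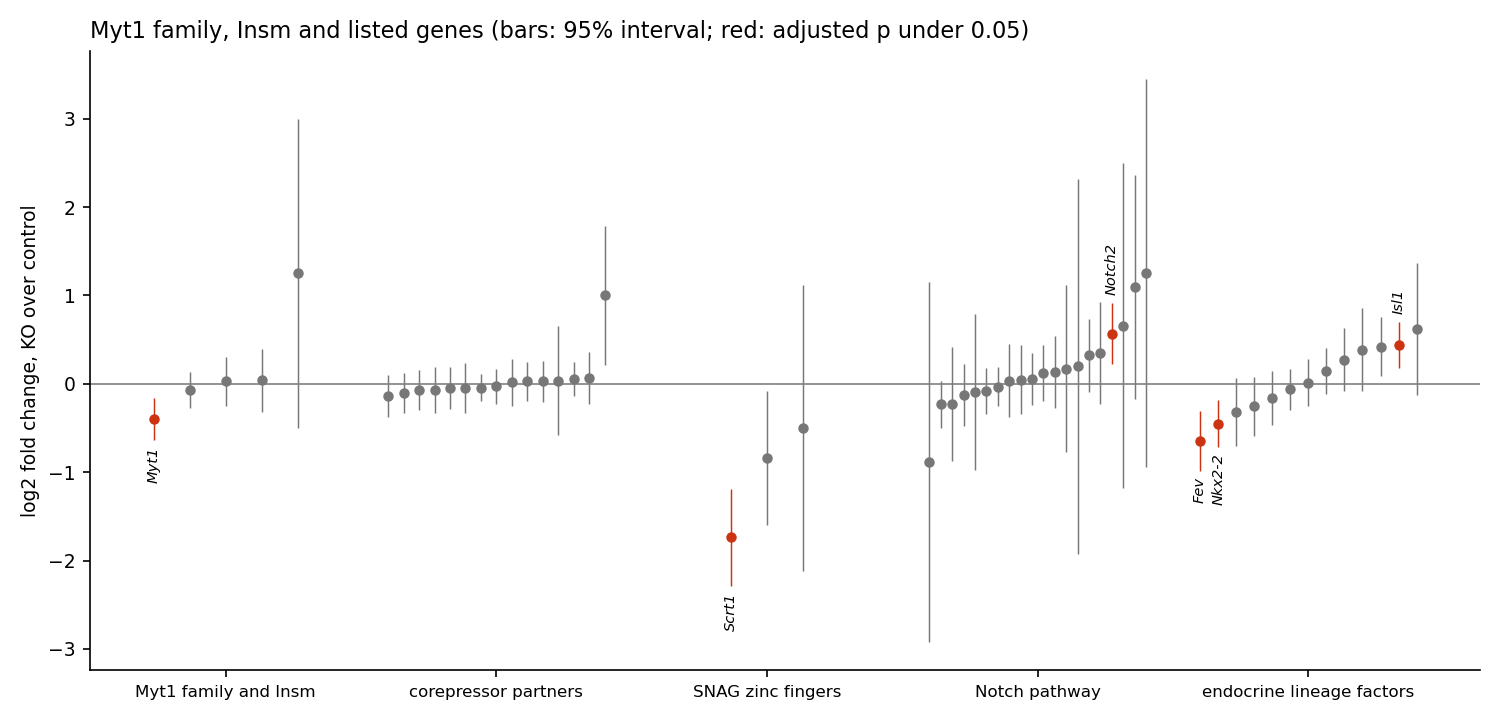
Log2 fold change, KO over control, of the Myt1 family and Insm genes and of the tested genes of each pathway list, sorted within a group (bars are 95% intervals from the DESeq2 SE, red marks an adjusted p under 0.05). Myt1 at -0.40, Scrt1 at -1.74, Notch2 at 0.57, Fev at -0.65, Nkx2-2 at -0.45 and Isl1 at 0.44 are red, and the corepressor partners cluster around 0 apart from Rest at 1.00.

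Summed alpha and gamma cell markers did not overlap between the groups, and those of beta and delta cells did. The 9 alpha cell markers, led by Gcg, summed to 6455030 to 8441520 normalized counts in controls and 2953200 to 4260980 in KO libraries. Of these 9, 7 fell (3 passed in edgeR), where 1.94% of all genes tested fell and 1.96% rose. Gc was at 0.44 on the log2 scale (adjusted p 0.298). It was called higher by library totals, without the unnumbered KO library and without both deepest libraries. The same held with a term for the deepest libraries and with the replicate number as a block. Gcg, which defines alpha cells, had 6164740 to 8050550 in controls and 2837930 to 4098500 in KO libraries. The 4 gamma cell markers summed to 309330 to 580204 and 889660 to 1136310, with Ppy and Pyy higher (Ppy alone passed in edgeR). The 5 delta cell markers summed to 197155 to 400129 and 356961 to 633738 (Rbp4 and Ffar4 higher), and the 12 beta cell markers to 375090 to 727232 and 569425 to 1016530 (Iapp, Npy and Glp1r higher, Slc30a8 at -0.34 with an adjusted p of 0.0834). No delta or beta cell marker passed in edgeR. With a term for the deepest libraries, 8 of the 12 beta cell markers were called higher and Slc30a8 lower. That fit called 7.1% of all genes. By library totals 6 beta cell markers were called higher, where 5.7% of all genes were called. Without control 2, 4 of the 5 delta cell markers were called higher, where 4.5% of all genes were called. Without KO 1, no marker of either list was called. With 1 library left out at a time, Ppy and Pyy kept their calls in 7 of 7 fits, Iapp and Glp1r in 5, Rbp4 in 3, and Ffar4 and Npy in 1 (Npy had an adjusted p in 4). Of the alpha cell markers, Gcg, Ttr, Slc38a5 and Dpp10 kept theirs in 7 of 7, Irx1 and Slc7a2 in 6, and Irx2 in 2. Without control 4, Ffar4 and Npy were not called. Their part in the fall of Myt1 and in the values of the other members was not tested. The markers Nkx6-1, Mafa and Pdx1 also stand in the list of lineage factors.

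Neurons are known to express Myt1l and Scrt1, and the 7 neuronal markers summed to 11488 to 16215 normalized counts in controls and 18426 to 25977 in KO libraries. Their median log2 fold change was -0.002. Nefm, a neurofilament gene, went from a mean of 5819 to 13902, while Snap25, a synaptic protein gene, had 4865 and 4705. Nefm rose (1.26, adjusted p 1.68e-05 with DESeq2 and 0.0588 with edgeR) and was called in all 7 fits that left out 1 library. Elavl3, an RNA-binding protein gene, fell (-1.40, adjusted p 0.018 with DESeq2 and 0.157 with edgeR) and kept its call in 2 of those 7. In the non-endocrine lists Spp1 of duct cells rose (0.65, adjusted p 0.0275 with DESeq2 and 0.146 with edgeR) and C1qa of leukocytes fell (-0.82, adjusted p 0.0127 with DESeq2 and 0.140 with edgeR). The leukocyte markers Ptprc, Cd68, C1qb, Adgre1 and Lyz2 went the other way, from 0.51 to 2.72, none called. The median of the leukocyte list was 0.53. C1qa had a control mean of 976 normalized counts, against at most 60.2 for the other leukocyte markers. Spp1 kept its call in 2 and C1qa in 4 of 7 fits with 1 library left out. With all 7 libraries no gene of the acinar, endothelial, mesenchymal or Schwann cell lists was called. Without control 3 the collagen genes Col1a1, Col1a2 and Col3a1 were called higher, and with the replicate number as a block on 4 libraries so were these and the acinar genes Cpa1, Cela3b and Cel. No marker of any list was at 0 in all libraries. The part of these cells in the members' values was not tested.

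The genes next to the members were read to see whether a change extended to the neighbourhood. Beside Myt1, Oprl1, an opioid-like receptor gene 42.3 kb to the left, had 160, 156, 156 and 215 normalized counts in controls and 74.3, 141 and 71.9 in KO libraries (-0.85, SE 0.35, adjusted p 0.216). Its groups did not overlap, which held for 11.4% of all genes tested. Pcmtd2, 10.1 kb to the right, had -0.13 (SE 0.10). Beside Myt1l, Pxdn, a peroxidase gene of the extracellular matrix that lies 14.4 kb to the right, rose from 1098 ± 101 (SD, n = 4) to 1615 ± 186 (SD, n = 3). Its log2 fold change was 0.56 (SE 0.14, adjusted p 0.00391 with DESeq2 and 0.0767 with edgeR), and it was called in 4 of 7 fits that left out 1 library. Beside Insm1, Cfap61, a ciliary gene 6.9 kb to the left, fell from 250 ± 62.0 to 125 ± 18.2 (-1.0, SE 0.29, adjusted p 0.018 with DESeq2 and 0.152 with edgeR), with the call kept in 3 of 7 such fits and lost without control 4. Of the other nearest protein-coding genes, Eipr1 (0.02), Pcmtd1 (0.01) and Ralgapa1 (-0.01) were not called, and Alkal1 and Aldoart2, with at most 10 counts in any library, had no adjusted p.

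Insm1 and Nkx2-2 lie on chromosome 2, with 952525 bases and 10 annotated genes between them. Of these, 4 code for proteins: Ralgapa2, Kiz, Xrn2 and Nkx2-4. Of the 10, Ralgapa2, Kiz and Xrn2 had an adjusted p and none of these 3 was called. The other 7 had no adjusted p with DESeq2, and A930019D19Rik among them had one of 0.735 with edgeR. Kiz had a log2 fold change of 0.07 (SE 0.09) and Xrn2 -0.07 (SE 0.09), and Ralgapa2 had -0.43 (SE 0.21, adjusted p 0.411) with 8060 normalized counts in control 4 against 4390 to 4866 in the other controls.

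Over the 7 libraries, the genes with a pattern most like each member were taken from 12766 genes with a mean of at least 100 normalized counts, by Pearson's r of log2(normalized count + 1). The 7 libraries share the grouping and the difference in depth, so r is a description. For Myt1 these were Sufu (0.992), Rnf169 (0.988) and Auh (0.985). None was called: Sufu, an inhibitor of Hedgehog signalling, had -0.32 (SE 0.14, adjusted p 0.273), Rnf169 -0.23 (SE 0.11) and Auh -0.32 (SE 0.11, adjusted p 0.095). All 3 were without overlap between groups, which held for 11.4% of all genes tested. They were picked for following Myt1, itself without overlap, so this is not a separate result.

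For Myt1l they were Kif21b (0.979), Lrba (0.968) and Nek8 (0.963), for St18 Mcoln1 (0.969), Ilvbl (0.964) and Cfap69 (0.964), and for Insm1 Vhl (0.984), Shmt2 (0.979) and Mmp24 (0.972). None of these 9 genes was called, and all overlapped between groups, as did the members they were picked to follow. Among the members, Myt1 had an r of 0.58 with St18, 0.27 with Myt1l and -0.36 with Insm1, and Myt1l had -0.73 with Insm1. With Nkx2-2, r was 0.72 for Myt1, 0.25 for St18, -0.30 for Myt1l and -0.02 for Insm1. Insm2 was below the mean required.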

How the data were processed

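RNA of sorted alpha cells was sequenced with a stranded total RNA kit for very low input, per the labels' protocols. They call the libraries ribosome-depleted, while a molecule field says polyadenylated RNA. The authors deposited raw counts per gene and library. The submitters' processing notes name FastQC, STAR, featureCounts, DESeq2 and mm10, and the strand setting is not given in the sources used here. The count table's 55536 gene IDs were all found in GENCODE M21 (GRCm38), which gave positions and exon lengths. All 7 columns were used. The KO column whose number matches no KO title was kept as a KO library without a number.

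KO and control were compared over all genes by the Wald test of DESeq2 1.42.0 under R 4.3.3 (no covariate, default filters with filtering aimed at 0.1, Benjamini-Hochberg), the test that the design text names, at a threshold of 0.05. An adjusted p with no tool named is from this fit. DESeq2 gave 1245 genes with counts no p-value. The quasi-likelihood test of edgeR 4.0.16 is printed beside it since it made far fewer calls. Both were tested on simulated data. Alternatives covered scaling, filters, left-out libraries, a term for the deepest libraries and replicate numbers. The floor of 3 counts covers only counting error.

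The members, the lists (4 pathway and 11 marker lists) and the tests were chosen with earlier results of these data known. Named genes are the members, Nkx2-2, called genes of the lists, neighbouring and overlapping genes, and the 3 genes most like each member; uncalled list genes were named after their values were seen. A list defined by protein sequence was not analysed here, and some listed genes are not reported here.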

Additional observations from a re-analysis of the deposited data

Results flagged for a closer look

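No member and no ratio between members had a control that stood apart by Dixon's test at the 95% level. Among 62 sets of control values of named genes, uncalled list genes left out, 10 had such a library. If independent and normally distributed, 62 sets would give 3.1. The sets here do not meet that condition, so the 2 numbers do not measure an excess. Pax1 and Gm14114 were at 0 in controls 1 to 3, which Dixon's ratio flags at any count, and Auh was picked for following Myt1. Control 4 was high in 8 of them, with normalized counts of 215 for Oprl1, 8060 for Ralgapa2, 188 for A930019D19Rik, 601 for C630031E19Rik, 812 for 6430503K07Rik, 3350 for Auh, and 2.89 for Pax1 and for Gm14114. Control 2 was high in the others, with 1833 for Npy and 8538 for Nefm. Uncalled list genes, outside the 62 sets, also had controls far above the rest. Control 3 had 899 for Col1a1 and 865 for Col3a1, against at most 231 and 363 in the other controls. For Cd68, control 4 had 105, against at most 47.1. A930019D19Rik, C630031E19Rik and 6430503K07Rik are annotated as antisense. The Myt1 value of control 4, 10987, did not stand apart by this measure.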

How the results depend on the processing

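The fall of Myt1 kept its direction in all 16 alternatives and lost its call in 7. It was -0.40 in edgeR, -0.30 by library totals, and between -0.47 and -0.32 without 1 library (-0.41 without control 2, -0.42 without control 3, -0.32 without control 4, and -0.37 without KO 1 or without KO 2). Signs near 0 turned for St18 (0.030 by library totals, 0.0027 without KO 2), for Myt1l (-0.043 without control 2, -0.028 without the unnumbered KO library) and for Insm1 (-0.00093 without control 3, -0.021 without control 4, -0.13 without KO 1). Without 1 library, Myt1l lay between -0.043 and 0.14, St18 between -0.12 and 0.0027, Insm1 between -0.13 and 0.21 and Insm2 between 0.54 and 1.73, none called. Insm2 had no adjusted p in 5 alternatives. The St18 to Insm1 ratio difference turned to 0.017 without KO 1 and 0.027 without KO 2, and lay between -0.33 and 0.027. The cause was not tested.

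The number of genes called was 769, against 203 in edgeR, 430 to 891 without 1 library (430 without KO 1) and 1371 with a term for the deepest libraries. Scaling by library totals made 70.0% of calls higher in KO, against 50.2%. Numbers 1 and 2 occur in both groups. Deviations of same-numbered libraries correlated at 0.29 and 0.28, and of crossed ones at -0.11 and 0.07, over 12766 genes. With the replicate number as a block, on 4 libraries, Myt1 had -0.39 (adjusted p 0.0167) and 579 genes were called. Insm2 had 2 to 52 counts per library, and what limits its call was not tested.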
